A study of Homo sapiens with 2 samples.

Results

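DNA repair genes were followed through a knockdown of YY1, a transcription factor with zinc fingers found at many promoters, in DLD-1 cells. The genes were a list of 52, chosen by name but with earlier results of these data known. They cover homologous recombination, damage signalling, end joining, mismatch repair, base excision and single-strand break repair, nucleotide excision and the Fanconi pathway. Of the 17687 named genes on the arrays, 46 were members. BRCA2, RBBP8, ATRIP, ERCC6, FANCA and FANCD2 had no probe set named for them alone and are not analysed here. One culture was transfected with an siRNA against YY1 (siYY1) and the other with a negative control siRNA (siControl), each at 5 nmol/L, and total RNA was taken after 3 days. DLD-1 is an established colorectal adenocarcinoma line, known to be deficient in mismatch repair through loss of MSH6 function, so both cultures carry that background.

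Each group was 1 microarray, without replicates, so the differences carry neither an error nor a test and compare these arrays, not the conditions. Differences are siYY1 minus siControl in log2 units, where -1 is a halving. The log2 scale itself was inferred from the range of the deposited values. A gene was compared if its higher value of the 2 arrays reached 7.50, which left 8747 protein-coding genes and 45 members. RAD51D, at 7.49 in siYY1 and 7.43 in siControl, fell just short, and RAD51B, at 6.82 in siYY1 and 7.75 in siControl, was just inside. The number of arrays limits the precision. Each of the 46 members was measured by 1 probe set. Where the arrays held several for a gene, as they did for 20 genes, the differences they gave lay 0.38 apart at the median. YY1 itself was not analysed here, since no probe set was named for it alone, and the knockdown is known from the labels alone. Of 8 colon epithelium markers 7 were bright, and their differences ran from -0.76 for CDX2 through -0.51 for VIL1 and -0.40 for KRT19 to 0.18 for EPCAM. VIL1 was under the minimum in siYY1, at 7.03. LGALS4 was dim on both arrays, and of 7 markers of other cell types only HBA1 was bright, at 9.84 in siYY1 and 7.61 in siControl.

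Cells repair DNA by pathways that each deal with another kind of damage. Double-strand breaks are copied from the sister chromatid by homologous recombination or sealed directly by end joining. Damaged bases are cut out singly by base excision, bulky lesions are removed within a short patch by nucleotide excision, copying errors are removed by mismatch repair, and crosslinks between strands are opened by the Fanconi pathway. Kinases of damage signalling halt the cell cycle meanwhile. Many of these genes are expressed most in cells that are copying their DNA. Each array measured the RNA of a whole culture, so fewer cells in such a phase and less RNA per cell cannot be told apart.

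Most repair members were lower in the siYY1 array, by small amounts. Their list was chosen with earlier results of these data known, so it is not an independent set. Of the 45 compared, 33 were below 0, a share of 73.3%, against 50.4% of all genes compared. The median difference was -0.38, which is 1.30-fold lower, and the median of all genes compared was -0.01. At least 2-fold lower were 8 members, or 17.8%, against 9.37% of all genes compared, and none was at least 2-fold higher, against 7.92%. The 8 were APEX1, ERCC2, UNG, XRCC5, NHEJ1, MRE11, NBN and XRCC2. A further 12 were between 1.5-fold and 2-fold lower, and 22 lay within 1.5-fold either way. Another 3 were between 1.5-fold and 2-fold higher (PARP1, POLB and PRKDC). Counted from 1.5-fold on, 44.4% of members were lower, against 21.8% of all genes compared. The 3 members higher stood against 19.4% of all genes compared. With the values as deposited, 35 members were below 0, 8 were at least 2-fold lower, against 12.2% of all genes, and none was at least 2-fold higher, and 33.4% of all genes past 2-fold were higher, against 45.8% after scaling. The members' median then moved to -0.50 and that of all genes to -0.13, so the gap between them was -0.37 in either case. With a higher brightness minimum, at the 75th percentile, 20 members were left and their median was -0.57.

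**Figure D1:**
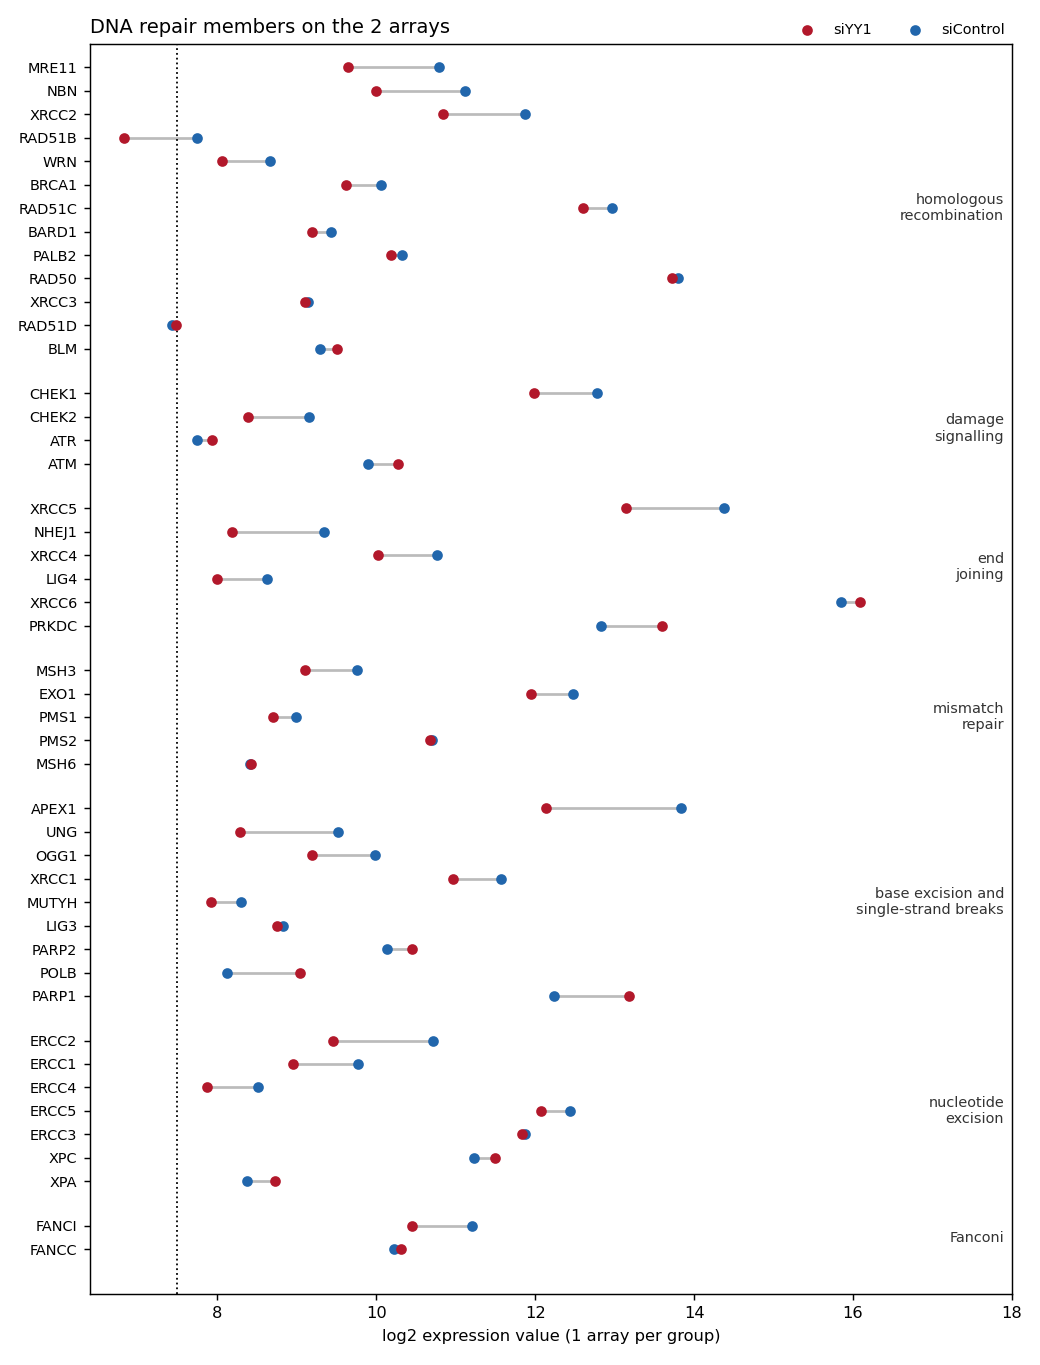
Log2 expression values (horizontal axis) of the 46 members with a named probe set on the siYY1 (red) and siControl (blue) arrays, 1 array per group, grouped by pathway and sorted by difference within each. The dotted line is the brightness minimum of 7.50. Red points lie left of blue for most members, with the widest gap at APEX1, while PARP1, POLB and PRKDC run the other way.

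**Figure D2:**
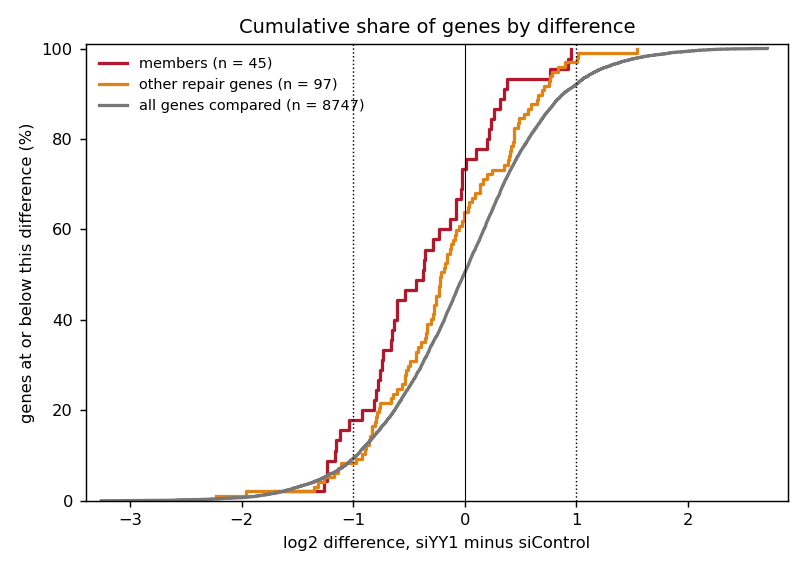
Cumulative share of genes (vertical axis, %) at or below each log2 difference, siYY1 minus siControl, for the 45 members, 97 other repair genes and all 8747 genes compared. Dotted lines mark 2-fold. The curve of the members crosses 0 at 73.3% and ends below the upper 2-fold line, at 0.95.

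Homologous recombination had 12 of 15 listed members compared, and 11 of these were lower in the siYY1 array, with a median of -0.40, or of -1.04 over the 5 left when the brightness minimum was raised to the 75th percentile. The members that stood lowest came from the break-sensing MRN complex, which holds the ends of a double-strand break and starts their resection. Its nuclease MRE11 was at 9.64 in siYY1 and 10.79 in siControl, a difference of -1.15 or 2.22-fold lower. NBN, the subunit that recruits the kinase ATM, was at 9.99 in siYY1 and 11.11 in siControl, 2.17-fold lower at -1.12. The third subunit, the ATPase RAD50, was at 13.72 in siYY1 and 13.80 in siControl and differed by -0.08. The complex was therefore split, with 2 of its 3 subunits lower by more than 2-fold and 1 near 0.

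The genes of the BCDX2 complex, which binds single-stranded DNA during recombination, were also split. XRCC2 was at 10.84 in siYY1 and 11.87 in siControl, 2.05-fold lower at -1.04. RAD51B was 1.90-fold lower at -0.92, but its siYY1 value of 6.82 lay below the brightness minimum. That size and its place among the members counted as lower are therefore uncertain. The other genes of the complex, RAD51C and RAD51D, differed by -0.36 and 0.06, and RAD51D, just short of the minimum, was not counted. XRCC3, which pairs with RAD51C in a second complex, was at 9.10 in siYY1 and 9.14 in siControl.

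The tumour suppressors of this pathway differed less. BRCA1 was at 9.62 in siYY1 and 10.06 in siControl, a difference of -0.44, and its obligate ubiquitin ligase partner BARD1 differed by -0.23. PALB2, which bridges BRCA1 and BRCA2, was at 10.19 in siYY1 and 10.32 in siControl. Of the RecQ helicases, which unwind recombination and replication intermediates, WRN was 1.52-fold lower at -0.61. BLM, at 9.51 in siYY1 and 9.30 in siControl, was the only member of this pathway among those compared that was higher in siYY1, by 0.21.

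Damage signalling had 4 members compared, on both sides of 0. The effector kinases CHEK1 and CHEK2, which carry the signal to the cell cycle machinery, were lower in the siYY1 array. CHEK1 was at 11.99 in siYY1 and 12.77 in siControl, a difference of -0.78, and CHEK2 was at 8.39 in siYY1 and 9.15 in siControl, a difference of -0.76. CHEK2 has near-identical pseudogene copies, so its probe set can share signal with them. The apical kinases that activate them were slightly higher, with ATM, which responds to double-strand breaks, at 10.27 in siYY1 and 9.90 in siControl, a difference of 0.38. ATR, which responds to single-stranded DNA at stalled forks, differed by 0.20. Neither exceeded the median distance of 0.38 between probe sets of 1 gene. PRKDC, of the same family as ATM and ATR, acts in end joining and was higher too. These 3 kinases ranged from 0.20 to 0.76, while the effector kinases were at -0.78 and -0.76. WEE1, a further kinase of damage signalling outside the members, was higher by 0.76.

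End joining had the lowest median of the pathways, -0.68 over 6 members, and held the widest gap between named partners. XRCC5 and XRCC6 encode the Ku80 and Ku70 subunits of the ring that slides onto broken ends. XRCC5 was at 13.15 in siYY1 and 14.38 in siControl, 2.35-fold lower at -1.23. XRCC6 was at 16.09 in siYY1 and 15.85 in siControl, higher by 0.24, so the partners lay 1.47 apart. PRKDC, the catalytic subunit of the kinase that Ku recruits, was 1.69-fold higher, at 13.59 in siYY1 and 12.83 in siControl. The ligation factors were all lower. NHEJ1, the XLF scaffold that bridges the ends, was at 8.18 in siYY1 and 9.35 in siControl, 2.25-fold lower at -1.17. DNA ligase LIG4 and its stabilising partner XRCC4 differed by -0.63 and -0.73, which is 0.10 apart. With the brightness minimum raised to the 75th percentile, the median was -0.25 over 4 members, so the place of this pathway among the others rests on LIG4 and NHEJ1.

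Mismatch repair had a median of -0.28 over 5 members, with 4 of them below 0 and none past 2-fold. MSH6, which recognises single mismatches and whose function DLD-1 lacks, was at 8.42 in siYY1 and 8.41 in siControl. MSH3, which takes its place for larger loops, was at 9.10 in siYY1 and 9.76 in siControl, 1.59-fold lower at -0.66. The exonuclease EXO1, which removes the faulty strand and also resects breaks, differed by -0.53. Of the MutL subunits, PMS1 differed by -0.28 and PMS2 by -0.03. PMS2 has near-identical pseudogene copies, so its value is uncertain.

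Base excision and single-strand break repair had members at both ends of the whole list, from -1.70 to 0.95, with a median of -0.38 over 9, or of -0.61 over the 3 left with the higher brightness minimum. The 3 lowest members were APEX1, UNG and OGG1. APEX1, the endonuclease that cuts the backbone once a damaged base is gone, was at 12.13 in siYY1 and 13.83 in siControl. That is 3.25-fold lower, and only 1.70% of all genes compared had a lower difference. UNG, the glycosylase that removes uracil, was at 8.29 in siYY1 and 9.52 in siControl, 2.35-fold lower at -1.24. The glycosylase OGG1, which removes oxidised guanine, was at 9.19 in siYY1 and 9.98 in siControl and differed by -0.79. MUTYH, which removes adenine paired with oxidised guanine, differed by -0.38.

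The 3 members above 0 were PARP1, POLB and PARP2. POLB, the polymerase that fills the gap, was at 9.04 in siYY1 and 8.12 in siControl, 1.90-fold higher at 0.93. PARP1, which senses strand breaks and marks them with poly(ADP-ribose), was at 13.19 in siYY1 and 12.24 in siControl, 1.93-fold higher and the highest of all members compared. Its relative PARP2 differed by 0.31. The scaffold XRCC1, which PARP1 recruits, was 1.53-fold lower at -0.61, and LIG3, the ligase bound to XRCC1, was at 8.75 in siYY1 and 8.83 in siControl. Members of this pathway thus stood on both sides of 0.

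Nucleotide excision had 7 of 8 members compared, with a median of -0.37, or of -0.20 over the 4 left with the higher brightness minimum. The 2 members slightly higher in the siYY1 array were XPC and XPA. XPC, which finds distorted DNA, was at 11.49 in siYY1 and 11.23 in siControl, and XPA, which checks the lesion, was at 8.72 in siYY1 and 8.37 in siControl, differences of 0.26 and 0.35. The 5 ERCC members were lower or near 0. ERCC2, one of the helicases of the TFIIH complex that open the DNA, was at 9.45 in siYY1 and 10.71 in siControl, 2.39-fold lower at -1.26. ERCC3, the translocase of the same complex, differed by -0.03. ERCC1 and ERCC4, which form the nuclease that cuts on one side of the lesion, differed by -0.82 and -0.65. ERCC5, the nuclease for the other side, was at 12.07 in siYY1 and 12.44 in siControl.

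The Fanconi pathway could be read in only 2 of 4 members. FANCI, a subunit of the clamp that is ubiquitinated at a crosslink, was at 10.45 in siYY1 and 11.20 in siControl, 1.68-fold lower at -0.75. FANCC, a subunit of the core complex that attaches the ubiquitin, was at 10.31 in siYY1 and 10.22 in siControl.

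**Figure D3:**
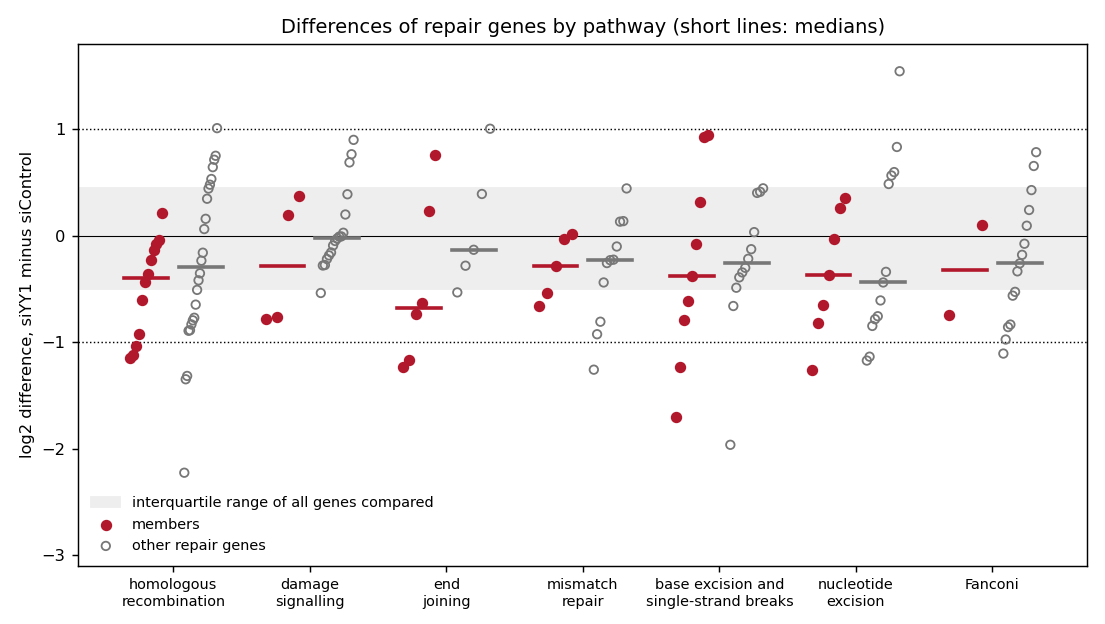
Log2 differences, siYY1 minus siControl (vertical axis), of the 45 members (filled, red) and 97 other repair genes (open, grey) by pathway. Short lines are medians, the grey band is the interquartile range of all genes compared, and dotted lines mark 2-fold. Every pathway has a median of its members below 0, and base excision spans the widest range of members.

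Other genes of the same pathways were taken from a list of 116, of which 97 were compared. The list was written from general knowledge but with earlier results of these data known, so it is not an independent set. Their median was -0.22, with 62 below 0, a share of 63.9% against 50.4% of all genes compared. At least 2-fold lower were 8 of them, or 8.25%, near the 9.37% of all genes compared. This count includes genes, named below, that reached the brightness minimum only in siControl. At least 2-fold higher were 3, or 3.09%, against 7.92%. The lowest was TOP3A, the topoisomerase that acts with BLM, at 7.96 in siYY1 and 10.19 in siControl, 4.68-fold lower at -2.23. SMUG1, a uracil glycosylase like UNG, was at 8.67 in siYY1 and 10.63 in siControl, 3.90-fold lower at -1.96. Both act beside members described above.

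The other 6 at least 2-fold lower were between -1.11 and -1.35. Among them were the helicase RECQL, the recombination accessory factor SFR1 and the replication and repair ligase LIG1, listed here under mismatch repair. The rest were the nucleotide excision genes ERCC8 and DDB2, and CENPX, which acts with the Fanconi helicase FANCM. LIG1, ERCC8, DDB2 and CENPX reached the brightness minimum only in siControl, so their sizes and their place in the count are uncertain. Among the other genes below 0, the same held for FANCB, FAAP20, FAAP100 and MPG. The other way, NEIL2 and RECQL4 reached it only in siYY1. Without a brightness minimum, the median of the list was -0.19 over 108 genes. The 3 at least 2-fold higher were GTF2H5, a small subunit of TFIIH, at 11.91 in siYY1 and 10.37 in siControl, and RAD54L and APLF, both just past 2-fold. RAD54L, a motor protein of recombination, and APLF, an end joining factor, were just under 2-fold in the values as deposited, at 0.88 and 0.89. RPA1, RPA3 and RFC3, at -0.89, -0.89 and -0.93 after scaling, were just past 2-fold lower as deposited, at -1.04, -1.02 and -1.06. Both counts therefore depend on the scaling.

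Several repair genes start head to head with a neighbour on the other strand, and the neighbours were read for comparison. By RefSeq starts on GRCh38.p14, 16 members had a protein-coding neighbour that starts within 1000 bases upstream on the other strand, and in 13 pairs both genes were compared. Both genes lay on the same side of 0 in 6 of the 13 pairs, always below. Over all genes the corresponding share was 47.8% of 492 such pairs, with a Spearman rho of -0.04 across pairs of the same arrays. MRE11 and ANKRD49 were alike, since ANKRD49 was at 7.46 in siYY1 and 8.69 in siControl and differed by -1.23. That siYY1 value was under the brightness minimum. MRE11 and ANKRD49 were 1 of 4 pairs among the 492 with both genes at least 2-fold lower. ANKRD49 was compared only through its siControl value, so that place is uncertain. CHEK2 and HSCB, its neighbour and an iron-sulfur cluster chaperone, both differed by -0.76, with HSCB under the minimum in siYY1 at 7.37. HSCB too was compared only through its siControl value, so the place of both pairs among the 6 is uncertain. PMS1 and ORMDL1 differed by -0.28 and -0.32. APEX1 and OSGEP, a tRNA-modifying enzyme, went opposite ways, with OSGEP at 9.98 in siYY1 and 9.63 in siControl. PALB2 differed by -0.13 and its neighbour DCTN5 by -1.24.

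The stretches between the starts are shown for the 3 pairs nearest in difference, and the 250 bases before the start for APEX1, the lowest member, whose neighbour differed the other way. They are written 5′ to 3′ on the strand of the repair gene, from RefSeq on GRCh38.p14. Capitals mark CCAAT on either strand (ATTGG on the opposite one), letters that were looked for after these sequences had been read.
MRE11, chr11:94493845-94493983, minus strand: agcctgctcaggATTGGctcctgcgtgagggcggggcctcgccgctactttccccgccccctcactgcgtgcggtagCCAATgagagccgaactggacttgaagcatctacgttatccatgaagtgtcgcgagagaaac
CHEK2, chr22:28741821-28742031, minus strand: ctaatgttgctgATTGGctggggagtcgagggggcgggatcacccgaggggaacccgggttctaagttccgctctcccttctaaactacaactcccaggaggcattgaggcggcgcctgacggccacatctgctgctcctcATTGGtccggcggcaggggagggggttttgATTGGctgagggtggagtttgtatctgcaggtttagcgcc
PMS1, chr2:189784340-189784449, plus strand: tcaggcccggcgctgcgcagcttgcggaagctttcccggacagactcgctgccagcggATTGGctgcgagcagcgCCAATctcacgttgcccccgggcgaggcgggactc
APEX1, chr14:20454976-20455225, plus strand: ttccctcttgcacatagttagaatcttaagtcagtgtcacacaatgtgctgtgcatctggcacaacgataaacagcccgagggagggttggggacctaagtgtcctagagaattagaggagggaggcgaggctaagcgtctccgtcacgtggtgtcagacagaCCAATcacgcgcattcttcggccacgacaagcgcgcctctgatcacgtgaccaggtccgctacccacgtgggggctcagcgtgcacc
The stretches hold 2, 3, 2 and 1 of these matches. The starts of APEX1 and OSGEP lie 414 bases apart, so the APEX1 count covers only part of that gap. Of 46 members with a promoter in the RefSeq table, not the same 46 as those with a probe set, 23 had a match. The window was 250 bases before to 50 after a start, and 42.1% of 15842 protein-coding genes had a match. BRCA1, ATM, XRCC6, LIG4, MUTYH and APEX1, whose neighbours lay on the other side of 0, were among the 23. So were PALB2, XRCC3, MRE11, CHEK2, XRCC4 and PMS1, whose neighbours lay on the same side. Of the members in pairs with both genes compared, only XPC had no match. Whether the matches go with agreement therefore cannot be read from these pairs.

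**Figure D4:**
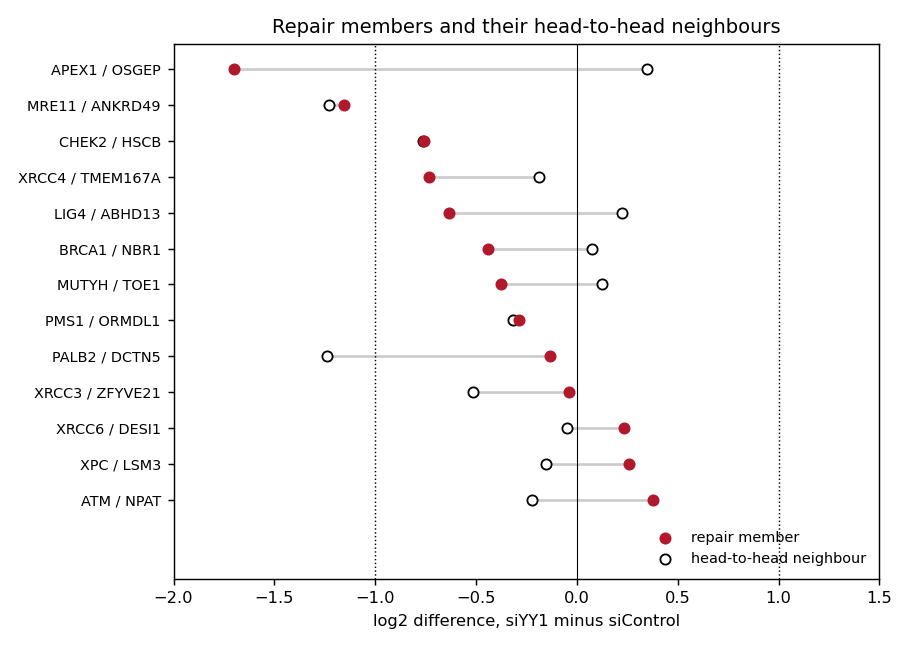
Log2 differences, siYY1 minus siControl (horizontal axis), of 13 repair members (filled, red) and their head-to-head neighbours (open), sorted by the member. Dotted lines mark 2-fold. The points coincide for CHEK2 and HSCB and lie farthest apart for APEX1 and OSGEP.

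The promoters were also searched for letters bound by YY1 (GCCATNTT, both strands), the factor that was knocked down. A match stood in 4 of the 46 members with a promoter in the table, a share of 8.70%, against 9.66% of all protein-coding genes there. Among the 4, FANCA had no value. The other 3 were PARP2, XPC and ATR, all slightly higher in the siYY1 array. Of the members past 2-fold, APEX1, ERCC2, UNG, NHEJ1, MRE11 and XRCC2 are in the table, and none had a match in this window. With a share of 9.66% over all genes, so few members cannot show a lack of matches. NBN and XRCC5 are not in the table. The matches of PARP2, XPC and ATR are shown in capitals within 30 bases, on the strand of the gene.
PARP2, chr14:20343529-20343558, plus strand: tgtccctcacaGCCATCTTcctgccagggc
XPC, chr3:14178553-14178582, minus strand: cccagacaagcAACATGGCtcggaaacgcg
ATR, chr3:142578684-142578713, minus strand: agcctcagcatgggggAACATGGCctggag
The match begins 95 bases before the start in PARP2, and 30 and 36 bases after it in XPC and ATR, both on the opposite strand. Over the genes compared that have a promoter in the table, the 1035 with a match had a median difference of 0.01 and the 6351 without one had -0.02. At least 2-fold lower were 10.4% with a match and 9.57% without.

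E2F factors drive many replication and repair genes in dividing cells. Their letters were TTTCCCGC or TTTGGCGC, on both strands. They stood in 7 of the 46 members with a promoter in the table, or 15.2%, against 3.70% of all protein-coding genes there. FANCD2 had no value. The 6 others were XRCC2 at -1.04, MSH3 at -0.66, MSH6 at 0.01, FANCC at 0.10, XRCC6 at 0.24 and XPC at 0.26, so matches stood on both sides of 0, with MSH6 and FANCC below 0 in the values as deposited. XRCC2 is shown as the 1 member with a match that was past 2-fold. The match begins 21 bases after its start on the opposite strand.
XRCC2, chr7:152676102-152676131, minus strand: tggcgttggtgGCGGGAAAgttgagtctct
Among the genes compared that have a promoter in the table, those with such a match had a median of -0.08 over 362, and those without had -0.01 over 7024. At least 2-fold lower were 8.56% with a match and 9.75% without.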

How the data were processed

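Biotin-labelled cDNA of total RNA from 2 DLD-1 cultures was hybridised to GeneChip arrays, per the labels' protocols. The authors deposited 1 value per probe set and array, taken here as log2 expression from their range of 2.51 to 17.92. Their software and normalization were not given in the sources used here. Array medians were 6.93 for siYY1 and 6.86 for siControl.

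Because the percentiles differed by more than 0.05, the pair was quantile normalized over 21448 probe sets. A platform table named 17709 of them with 1 gene each, and RefSeq (GRCh38.p14) gave current symbols by gene ID. Probe sets without a name or named for several genes were left out. Probe sets of 1 gene were averaged. Genes whose higher value reached the median of that value, 7.50, were compared, and counted at 2-fold without a test. All 52 members were named, other repair genes if past 2-fold or where they limit a reading, and head-to-head neighbours by RefSeq starts. Members, lists and pathways were chosen with earlier results of these data known. Protein lengths were not used here. On simulated data, 200 of 200 planted differences were recovered among 8747 genes and no unchanged gene passed 2-fold. This checks the computation only. Python 3.11.15, numpy 2.4.6, pandas 2.3.3, statsmodels 0.14.6 and matplotlib 3.10.9 were used.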

Additional observations from a re-analysis of the deposited data

How the results depend on the processing

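The count of members at least 2-fold lower was 8 in the values as deposited, with loess on brightness, with the brightest probe set and without a brightness minimum, and 9 with median centring, which added ERCC1. At 1.5-fold it was 20, or 44.4%, against 21.8% of all genes compared. At that fold 3 members were higher, and 19.4% of all genes compared. At 3-fold it was 1 (APEX1), or 2.22%, near the 2.44% of all genes compared. The members' median ran from -0.57 to -0.37 over these settings, but the median of all genes moved with the scaling, to -0.20 with median centring, when 440 genes were at least 2-fold higher and 1250 lower, against 693 and 820 in the report. Against that median the members lay between -0.40 and -0.37 under every scaling. With the brightness minimum at the 75th percentile, 20 members were left and their median was -0.57. The pathway medians were then -1.04 for homologous recombination over 5 members, -0.25 for end joining over 4, -0.61 for base excision over 3, -0.20 for nucleotide excision over 4, and -0.78 for damage signalling and -0.75 for the Fanconi pathway, each over 1 member, because fewer members were compared. The sign of MSH6, FANCC, PMS2 and RAD51D, all near 0, changed with the scaling. With 1 array per group, brightness sets how far a difference can be read, and culture-to-culture spread was not measured.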

Other observations

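The median of the repair members was below that of all genes at each brightness. When the genes compared were ranked by brightness and cut into 3 equal parts, 16 members in the dimmest part had a median difference of -0.33, against -0.03 for all genes of that part. In the middle part 16 members had a median of -0.64, against -0.01, and in the brightest part 13 members had a median of -0.36, against 0.01. At least 2-fold lower were 2 members in the dimmest part, or 12.5%, against 12.2% of all genes there. In the middle part they were 3 members, or 18.8%, against 9.16%, and in the brightest part 3 members, or 23.1%, against 6.79%.

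Partners that form a stable complex differed by unlike amounts. ERCC1 and ERCC4 lay 0.17 apart and BRCA1 and BARD1 0.21 apart. The TFIIH subunits ERCC2 and ERCC3 lay 1.23 apart and the extremes of the MRN complex 1.08 apart. The SD of the differences over all 8747 genes was 0.75, and over the 45 members it was 0.61.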
